A study of Mus musculus with 16 samples.

Results

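Amino acid transporters of 7 solute carrier families were examined in an enriched tumour cell fraction of mice bearing LLC1, a Lewis lung carcinoma line. The members were chosen by gene symbol: every row of the expression table in the Slc1a, Slc6a, Slc7a, Slc36a, Slc38a or Slc43a series, with Slc3a1 and Slc3a2, and without Slc7a11 and pseudogenes. The rule took 40 of the 24334 genes in the table. Of these, 38 are transporter genes, and the other two, Slc36a1os and Slc7a6os, are genes on the opposite strand of a transporter gene and encode no member of these families. Of the 38 transporter genes, 29 lay at least 1 above the lowest value of the table in 4 or more of the 16 libraries and were tested, and 23 did so in all 16 libraries.

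Mice were treated for 16 days, and each of 4 groups holds 4 libraries. Vehicle mice received DMSO. TMP195 mice received TMP195, an inhibitor of class IIa histone deacetylases, at 50 mg/kg, and MYCi975 mice received MYCi975, a drug-like compound that blocks the MYC transcription factor, at 50 mg/kg. Combo mice received both, and the labels do not give the dose of each in the combination. All mice carried the same tumour line, and every group was enriched for tumour cells, by a method that the labels do not give. The sources used here do not give the age, sex or strain of the mice. Nothing states that each library is its own animal, so a p-value here reflects spread among libraries, possibly technical. The series concerns the combined inhibition of MYC and class IIa histone deacetylases in non-small cell lung cancer.

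Amino acid transporters bring building blocks for protein, nucleotide and glutathione synthesis into the cell, and exchange or release others. Many light chains of the SLC7 family reach the plasma membrane only when joined to a heavy chain of the SLC3 family, CD98 (Slc3a2) or rBAT (Slc3a1). Several of these genes, such as Slc7a5, Slc3a2 and Slc1a5, are described as targets of MYC and of ATF4, the transcription factor of the amino acid response, and some transporters sit in the lysosome, where they report amino acid supply to the growth kinase complex mTORC1.

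Values were deposited after variance stabilisation, on a scale close to log2, with a lowest value of 4.84 in every library. The depth per library is unknown, and between 1960 and 3130 genes stood at the lowest value in a library. The values are not per gene length, so levels are compared between libraries and not between genes, and differences of weakly expressed genes are understated. Replicate 4 of Vehicle, TMP195 and MYCi975 stood apart on the first principal component (21.2% of the variance), with scores of 26.6 to 33.2 against at most 5.90 in the other 13 libraries. The label was checked against markers. Krt8 and Krt18, keratins of epithelial cells, stood at medians of 10.62 and 10.86, while Epcam was above the lowest value by 1 or more in 1 library and Cdh1 in 2. Of the other keratins listed, Krt7 reached that level in all 16 libraries (median 6.83) and Krt19 in 6. The 2 lung alveolar markers in the table, Napsa and Sftpb, reached that level in no library. Of 5 markers of fibroblasts and pericytes, Dcn, Lum, Pdgfra and Pdgfrb reached that level in all 16 libraries. Their medians were 14.18, 13.24, 12.86 and 7.70 in that order. Rgs5 reached that level in no library. Some genes of mesenchymal cells were thus abundant in every library, though not all on the list. The mean of 9 leukocyte markers ran from 5.85 to 6.51 in Vehicle, 6.07 to 7.27 in TMP195, 5.84 to 7.03 in MYCi975 and 5.845 to 6.215 in Combo, with TMP195 replicate 1 and MYCi975 replicate 3 highest. The part of other cell types in the results was not tested, with 3 kinds of exception. These are values without those libraries, values with the leukocyte mean as a covariate, and correlations with the leukocyte markers. In such bulk libraries, fewer cells of a type and less RNA per cell cannot be told apart.

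The 4 groups were compared in 9 ways: the 6 pairs of groups, both groups with MYCi975 against both without it (8 against 8), the same for TMP195, and the interaction, which is Combo minus MYCi975 minus TMP195 plus Vehicle. No transporter passed limma's test, fitted over all 15715 tested genes with Benjamini-Hochberg adjustment, at an adjusted p under 0.05 in any comparison, and the background was 0% of all genes in 8 comparisons and 0.00636% (1 gene, Cd93, which is no transporter) for MYCi975 against TMP195. The smallest adjusted p of a transporter was 0.633, for Slc7a7 between Combo and TMP195. In the test for any difference among the 4 groups, 0 transporters passed (background 0%) and 2 had an unadjusted p under 0.05, Slc7a7 and Slc3a2 (background 3.83%, or 602 genes).

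At an unadjusted p under 0.05, 5 of 29 transporters were counted for any MYCi975 against none, beside a background of 5.32% of all genes. They were Slc7a7, Slc38a6 and Slc3a1, which were higher, and Slc3a2 and Slc7a5, which were lower. Slc3a1 passed the filter only through MYCi975 and Combo libraries, where it was high, so its place in this count, and in that for MYCi975 against TMP195, was set by the filter. The count was 0 for TMP195 against Vehicle (background 4.88%), 2 for MYCi975 against Vehicle (background 3.03%) and 2 for Combo against Vehicle (background 4.09%). The last count holds Slc43a1, which passed the filter through no Vehicle library and is likewise no support. The count was 1 for Combo against MYCi975 (background 2.32%), 3 for Combo against TMP195 (background 5.33%) and 3 for MYCi975 against TMP195 (background 5.26%). For any TMP195 against none and for the interaction it was 0, with backgrounds of 4.37% and 3%. The comparisons share libraries and are not independent of each other.

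The differences of the transporters lay on both sides of 0. Of the 29, 15 lay below Vehicle in TMP195 (background 53.7% of all genes), 19 in MYCi975 (background 52.9%) and 16 in Combo (background 52.6%), and 17 were lower for any MYCi975 against none (background 50.5%). Their median difference from Vehicle was -0.0025 in TMP195, -0.07 in MYCi975 and -0.04 in Combo, beside medians of -0.01 in each over all tested genes, and the median SE of a transporter was 0.17. These counts describe the members that passed the filter and are no support for a direction. With no filter, over all 38 transporter genes, the median for any MYCi975 against none was -0.01, where it was -0.05 over the 29.

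**Figure D1:**
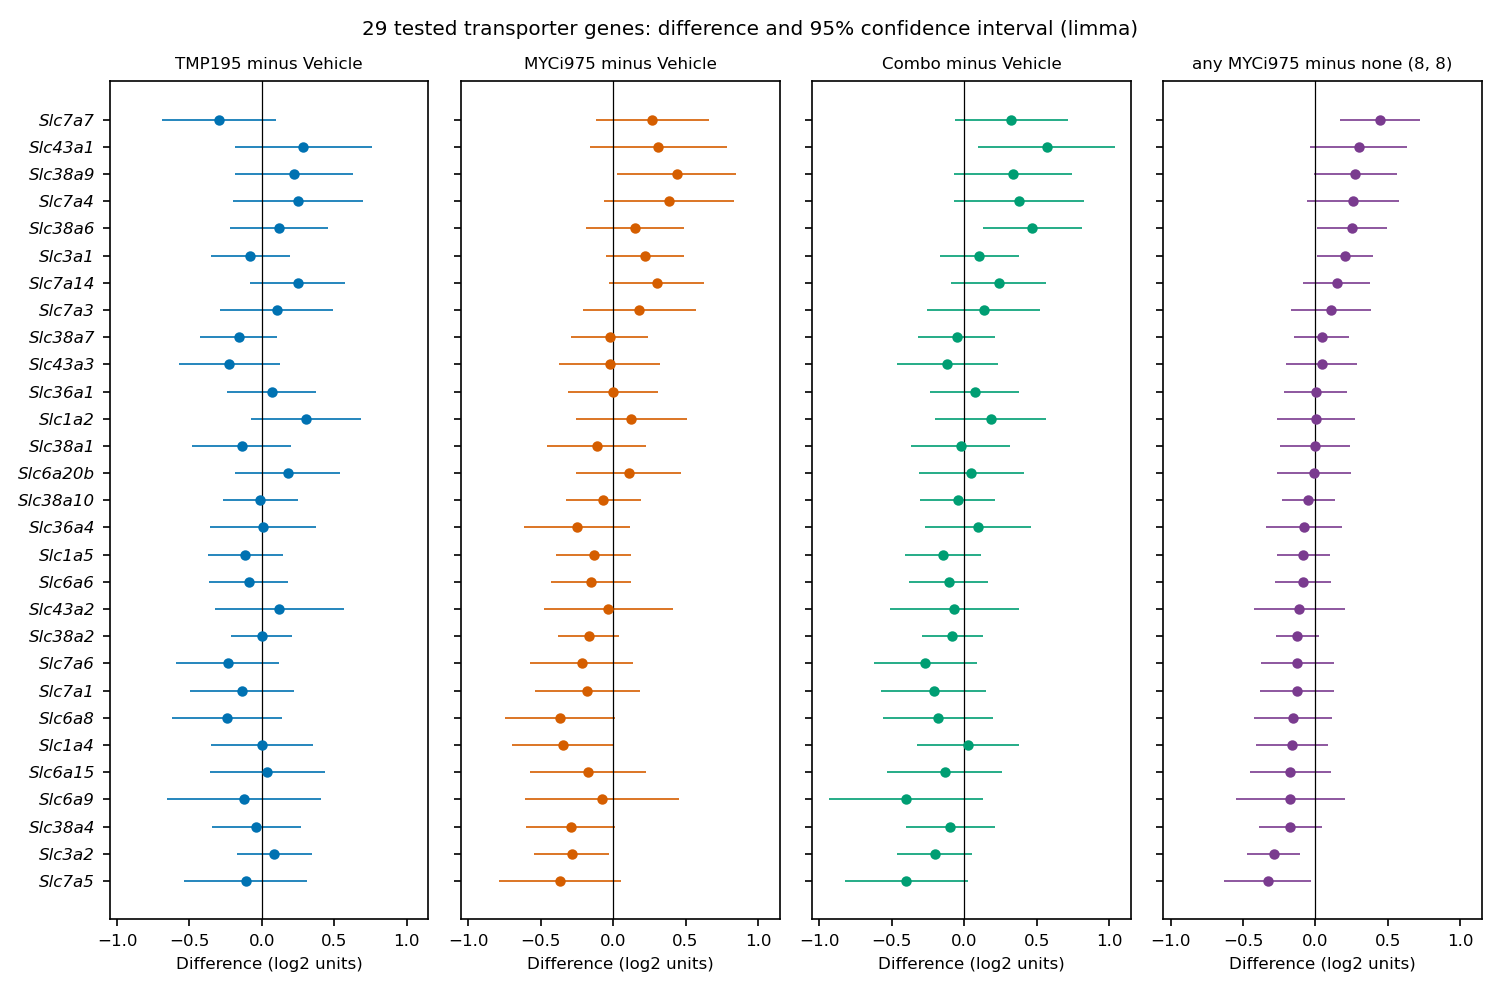
Difference in variance-stabilised value (log2 units, x axis) with its 95% confidence interval for each of the 29 tested transporter genes (y axis), for each treatment minus Vehicle (4 against 4 libraries) and for any MYCi975 minus none (8 against 8), ordered by the last. Most intervals cross 0, Slc3a2 and Slc7a5 lie at the lower end of the last panel (-0.29 and -0.33) and Slc7a7 at the upper end (0.45), and no gene passed the adjusted test.

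Start-site windows of the transporters were read for 2 kinds of motif, because MYC with MAX is known to bind the E-box and ATF4 with C/EBP proteins the C/EBP-ATF response element. RefSeq promoter windows (GRCm38.p6, 250 bases before to 50 after a start site) matched 20 of the 29 tested transporters by symbol. The other tested transporters, Slc1a5, Slc6a6, Slc6a8, Slc6a15, Slc7a3, Slc7a4, Slc7a5, Slc38a1 and Slc43a3, had no window and were not searched. The E-box CACGTG, searched on both strands, lay in a window of 4 of the 20 (Slc36a1, Slc38a7, Slc43a1 and Slc7a14), and in 8.09% of all 27025 genes with a window. By window, it lay in 4 of the 31 windows of these transporters and in 7.15% of all 32851 windows. The transporters had passed the expression filter, while the genes of the background were not filtered. The element TGATGNAAT lay in none of the 20 and in 1.08% of all genes. Its shorter form TGATGNAA, searched after that result was seen and contained in the longer one, lay in 2 (Slc1a4 and Slc7a7) and in 4.51% of all genes. A match describes these letters and is not a bound site, and no match says only that the letters are not in the window.

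The windows of the 4 named transporters that the comparisons and motifs turn on are printed 5′ to 3′ in the direction of the gene, with motif matches in capitals. Slc43a1, at chr2:84840073-84840372 on the + strand, holds CACGTG, and Slc1a4, at chr11:20332664-20332963 on the - strand, holds the reverse complement of TGATGNAA. Slc7a7, at chr14:54417895-54418194 on the - strand, holds TGATGNAA at 2 places and has 4 further windows, and Slc3a2, at chr19:8713848-8714147 on the - strand, holds none of the motifs searched.
Slc43a1: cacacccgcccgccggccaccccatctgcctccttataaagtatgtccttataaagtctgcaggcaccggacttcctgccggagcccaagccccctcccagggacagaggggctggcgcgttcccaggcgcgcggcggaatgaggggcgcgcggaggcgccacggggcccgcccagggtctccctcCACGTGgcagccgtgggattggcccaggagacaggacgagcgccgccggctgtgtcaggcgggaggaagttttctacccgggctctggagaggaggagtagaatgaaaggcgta
Slc1a4: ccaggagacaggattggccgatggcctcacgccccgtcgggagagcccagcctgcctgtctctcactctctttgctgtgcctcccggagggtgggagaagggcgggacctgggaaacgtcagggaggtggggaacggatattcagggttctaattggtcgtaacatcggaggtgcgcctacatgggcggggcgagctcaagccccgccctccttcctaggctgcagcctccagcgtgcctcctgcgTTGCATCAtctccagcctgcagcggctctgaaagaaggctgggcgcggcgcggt
Slc7a7: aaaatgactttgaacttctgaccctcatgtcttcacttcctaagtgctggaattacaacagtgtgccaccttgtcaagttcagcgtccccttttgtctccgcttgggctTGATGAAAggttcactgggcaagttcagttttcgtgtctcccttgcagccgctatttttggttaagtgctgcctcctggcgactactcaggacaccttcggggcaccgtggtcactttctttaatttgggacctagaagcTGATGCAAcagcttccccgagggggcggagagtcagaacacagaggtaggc
Slc3a2: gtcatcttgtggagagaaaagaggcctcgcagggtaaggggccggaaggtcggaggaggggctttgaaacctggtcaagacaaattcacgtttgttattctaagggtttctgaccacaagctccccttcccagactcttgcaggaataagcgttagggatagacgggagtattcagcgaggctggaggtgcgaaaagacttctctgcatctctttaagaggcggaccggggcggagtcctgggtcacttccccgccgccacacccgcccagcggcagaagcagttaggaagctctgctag

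Among the heavy chains, Slc3a2 (ENSMUSG00000010095.14, CD98) had lower mean values in the groups given MYCi975. Slc3a2, in replicates 1 to 4, stood at 11.43, 11.77, 11.57 and 11.93 in Vehicle and at 11.53, 11.84, 11.92 and 11.74 in TMP195. It stood at 11.33, 11.34, 11.43 and 11.45 in MYCi975 and at 11.68, 11.23, 11.53 and 11.43 in Combo. The 4 MYCi975 values lay close together and below all 4 of TMP195, and they overlapped Vehicle, whose replicate 1 was the lowest of its group. Combo overlapped Vehicle and TMP195, and its replicate 1 lay just above the Vehicle mean of 11.67. For any MYCi975 against none the difference was -0.29 (SE 0.09, 95% confidence interval -0.47 to -0.11, limma adjusted p = 0.805), and 8 of 8 libraries lay below the mean of the others. It was -0.37 (SE 0.12, 95% confidence interval -0.63 to -0.11, limma adjusted p = 0.809) for MYCi975 against TMP195, a comparison in which Slc3a2 was the transporter whose groups did not overlap with MYCi975 lower (background 1.13% of all genes). Against Vehicle, Slc3a2 differed by 0.08 (TMP195), -0.29 (MYCi975) and -0.21 (Combo), each with an SE of 0.12. The 95% confidence interval for Combo was -0.46 to 0.05. Between Combo and MYCi975 the difference was 0.08 with an interval of -0.18 to 0.34, and the interaction was -0.00 (SE 0.17). Without the 4 libraries numbered 4, the difference for any MYCi975 against none was -0.25 and that of Combo from Vehicle -0.11, and without the 2 libraries highest in leukocyte markers -0.33. The Combo difference from Vehicle was -0.12 without Vehicle replicate 4 and -0.13 without Combo replicate 2, and that of TMP195 ran from 0.0031 to 0.17 as each library was left out, lowest without Vehicle replicate 1.

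Slc3a1, the rBAT heavy chain that carries the cystine transporter of kidney and gut, lay just inside the filter. It reached 1 above the lowest value in 4 libraries, MYCi975 replicates 3 and 4 and Combo replicates 3 and 4, at 5.87 to 6.13. Because it passed through those groups alone, its difference of 0.20 for any MYCi975 against none (SE 0.09) was partly set by the filter and is no result. Just outside the filter were Slc7a2, with 3 libraries past that level, and Slc7a8, with 2.

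Of the light chains that pair with CD98, Slc7a5 (LAT1, a transporter of leucine and other large neutral amino acids) had its highest values in Vehicle and TMP195. Slc7a5, in replicates 1 to 4, stood at 11.25, 11.97, 11.27 and 12.13 in Vehicle and at 11.30, 11.26, 11.60 and 12.02 in TMP195. It stood at 11.09, 11.48, 11.04 and 11.54 in MYCi975 and at 11.18, 11.31, 11.29 and 11.23 in Combo. The Vehicle libraries fell into 2 high and 2 low values, and the 4 Combo libraries lay close together at or below the lower end of the Vehicle range, with replicates 1 and 4 below it. The difference for any MYCi975 against none was -0.33 (SE 0.14, 95% confidence interval -0.63 to -0.03, limma adjusted p = 0.932), with 8 of 8 libraries below the mean of the others. Against Vehicle, Slc7a5 differed by -0.11 (TMP195), -0.37 (MYCi975) and -0.40 (Combo), each with an SE of 0.20, and the groups overlapped in each. Without Vehicle replicate 4 these were 0.05, -0.21 and -0.24. Replicate 4 was the highest library of Vehicle, TMP195 and MYCi975 but not of Combo, the same libraries that stood apart on the first principal component, whose part in the result was not tested. Without the 4 libraries numbered 4 the difference for any MYCi975 against none was -0.21 (SE 0.13) and that of Combo from Vehicle -0.235, and without TMP195 replicate 1 and MYCi975 replicate 3 it was -0.33.

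Slc7a6 (y+LAT2), a light chain that exchanges basic for neutral amino acids, differed from Vehicle by -0.24 (TMP195), -0.22 (MYCi975) and -0.27 (Combo), each with an SE of 0.17. Its values ran from 9.82 to 10.20 in Vehicle, 9.56 to 9.96 in TMP195, 9.52 to 10.05 in MYCi975 and 9.19 to 9.96 in Combo, so all groups overlapped. Slc7a6os, the gene on its opposite strand, differed by -0.18 (TMP195), -0.17 (MYCi975) and -0.19 (Combo), each with an SE of 0.12. The sources used here do not say whether the counting used strand. Whether reads from any stretch shared by the pair were told apart is therefore unknown.

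Slc7a7 (y+LAT1), the light chain that exports basic amino acids and is mutated in lysinuric protein intolerance, had the smallest p of any transporter. Slc7a7, in replicates 1 to 4, stood at 6.44, 6.27, 6.27 and 6.69 in Vehicle and at 5.94, 5.88, 6.20 and 6.48 in TMP195. It stood at 6.56, 6.83, 6.36 and 7.01 in MYCi975 and at 6.65, 6.94, 7.02 and 6.36 in Combo. TMP195 held the lowest values and Combo and MYCi975 the highest, with 1 Combo and 1 MYCi975 library inside the TMP195 range. The difference was 0.62 (SE 0.19, 95% confidence interval 0.23 to 1.01, limma adjusted p = 0.633) for Combo against TMP195 and 0.57 (SE 0.19) for MYCi975 against TMP195. For any MYCi975 against none it was 0.45 (SE 0.13, 95% confidence interval 0.17 to 0.72, limma adjusted p = 0.805), with 8 of 8 libraries above the mean of the others. From Vehicle it differed by -0.30 (TMP195), 0.27 (MYCi975) and 0.33 (Combo), each with an SE of 0.19, so the contrast lay between TMP195 on one side and both MYCi975 groups on the other. Slc7a7 is also known from macrophages. TMP195, the group with its lowest values, held the library with the highest leukocyte marker mean. Across the 16 libraries, Slc7a7 had r = -0.432 with the leukocyte marker mean (permutation p = 0.0935, adjusted 0.172). Whether other cell types bear on the values of Slc7a7 was not tested. Without the 4 libraries numbered 4 the Combo against TMP195 difference was 0.87, and without the 2 libraries highest in leukocyte markers 0.56. Array quality weights, which give less weight to libraries with large residuals, gave an adjusted p of 0.0548, the smallest of any transporter in any setting.

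**Figure D2:**
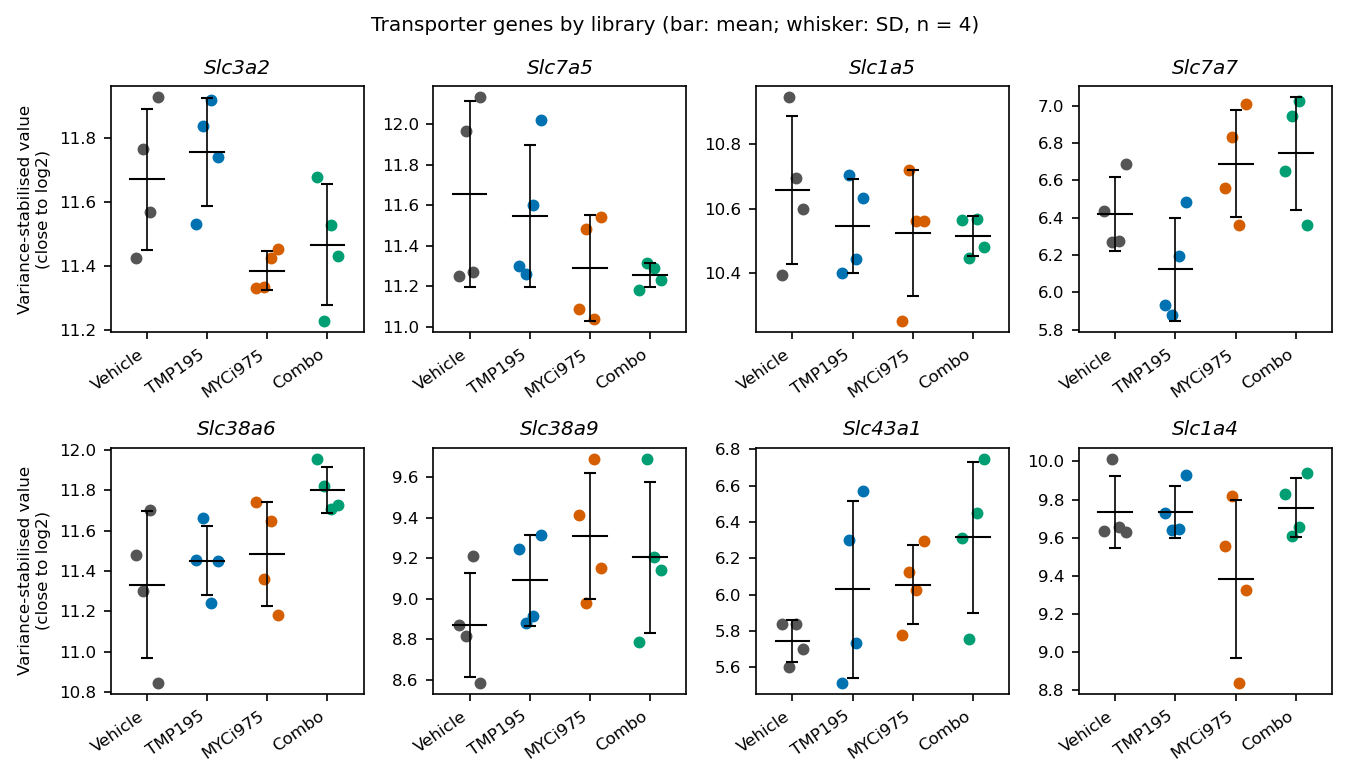
Variance-stabilised value (close to log2, y axis, not starting at 0) of 8 transporter genes in each library (points, replicates 1 to 4 from left to right) of the 4 groups (x axis), with the mean (bar) and SD (whisker, n = 4). Slc3a2 in MYCi975 lies below all TMP195 libraries, Slc38a6 in Combo lies above all Vehicle and TMP195 libraries, and the groups of Slc7a5, Slc1a5, Slc38a9, Slc43a1 and Slc1a4 overlap in every pair with Vehicle.

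Among the cationic transporters, most values other than those of Slc7a1 lay near the filter level. Slc7a1 (CAT1), the main carrier of arginine and lysine in dividing cells, stood at 11.60 to 12.31 in Vehicle, 11.33 to 12.16 in TMP195, 11.50 to 11.98 in MYCi975 and 11.50 to 11.86 in Combo. Its highest library was Vehicle replicate 2, and its difference from Vehicle was -0.14 (TMP195), -0.18 (MYCi975) and -0.21 (Combo), each with an SE of 0.17. Without that library the differences were 0.0032, -0.0352 and -0.0702, and leaving out each library in turn gave -0.277 to 0.0032 for TMP195, -0.272 to -0.0352 for MYCi975 and -0.307 to -0.0702 for Combo. Slc7a3, Slc7a4 and Slc7a14 all had values between 5.26 and 7.86, and all 3 lay above the Vehicle mean in every treatment, by 0.10 to 0.39, without passing the test. Every treatment was set against the same Vehicle libraries, so these differences are not independent. Slc7a4 reached the filter level in 1 Vehicle library and in 3 libraries of each other group, so part of that difference follows from the filter. Slc7a2 (CAT2), an arginine carrier known from activated macrophages, passed the level in TMP195 replicate 1 (6.76) and MYCi975 replicates 1 and 4 (5.87 and 6.53).

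The SLC1 family holds the glutamine carrier Slc1a5 (ASCT2), the serine and alanine carrier Slc1a4 (ASCT1) and the glutamate transporters of brain. Slc1a5, in replicates 1 to 4, stood at 10.39, 10.95, 10.70 and 10.60 in Vehicle and at 10.40, 10.71, 10.44 and 10.63 in TMP195. It stood at 10.25, 10.72, 10.56 and 10.56 in MYCi975 and at 10.56, 10.45, 10.57 and 10.48 in Combo. All groups overlapped, and Slc1a5 differed from Vehicle by -0.11 (TMP195), -0.14 (MYCi975) and -0.14 (Combo), each with an SE of 0.12. The interval for any MYCi975 against none was -0.27 to 0.10. Without Vehicle replicate 2, the highest library, the differences from Vehicle were -0.0179, -0.0392 and -0.0485, and without Vehicle replicate 1, the lowest of its group, -0.203, -0.224 and -0.233. Without MYCi975 replicate 1 that of MYCi975 was -0.044, and without TMP195 replicate 1 that of TMP195 was -0.0659.

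Slc1a4, in replicates 1 to 4, stood at 9.63, 10.01, 9.66 and 9.63 in Vehicle and at 9.73, 9.64, 9.64 and 9.93 in TMP195. It stood at 9.56, 9.82, 8.84 and 9.33 in MYCi975 and at 9.83, 9.61, 9.65 and 9.94 in Combo. Slc1a4 was lower in MYCi975 alone, where replicates 3 and 4 were the lowest of all 16 libraries and replicate 2 lay within the Vehicle range. It differed from Vehicle by 0.00 (TMP195), -0.35 (MYCi975) and 0.02 (Combo), each with an SE of 0.17. The difference of Combo from MYCi975 was 0.37 (SE 0.17, 95% confidence interval 0.02 to 0.72, limma adjusted p = 1), and the interaction was 0.37 (SE 0.24, 95% confidence interval -0.12 to 0.87, limma adjusted p = 1). Without TMP195 replicate 1 and MYCi975 replicate 3, the 2 libraries highest in leukocyte markers, the difference of Combo from MYCi975 and the interaction were both 0.19, as they were without MYCi975 replicate 3 alone. Slc1a2 (GLT-1), a glutamate transporter of astrocytes, was near the filter level at 5.79 to 6.78 and had the smallest p of the transporters for TMP195 against Vehicle, with a difference of 0.31 (SE 0.18) and a limma adjusted p of 0.945, and it was 0.17 without TMP195 replicate 4. Slc1a3 passed the level in 1 library and Slc1a7 in none.

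The sodium-coupled neutral transporters of the SLC38 family were all tested, 7 of 7. Slc38a6 (SNAT6) was higher in Combo. Slc38a6, in replicates 1 to 4, stood at 11.48, 11.30, 11.70 and 10.85 in Vehicle and at 11.45, 11.66, 11.24 and 11.45 in TMP195. It stood at 11.74, 11.36, 11.65 and 11.18 in MYCi975 and at 11.96, 11.82, 11.71 and 11.72 in Combo. All 4 Combo libraries lay above all Vehicle and all TMP195 libraries, though Combo replicate 3 exceeded Vehicle replicate 3 only narrowly, and they overlapped MYCi975, whose replicate 1 reached 11.74. The background of genes with no overlap and a higher value was 1.79% for Combo against Vehicle and 1.75% for Combo against TMP195, and Slc38a6 was the transporter that met it in each. The difference from Vehicle was 0.47 (SE 0.16, 95% confidence interval 0.13 to 0.81, limma adjusted p = 0.987), and that from TMP195 was 0.35 (SE 0.16). Vehicle replicate 4, at 10.85, was the lowest of all libraries. Without it the difference of Combo from Vehicle was 0.31, and without the 4 libraries numbered 4 the difference of Combo from Vehicle was 0.33.

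Slc38a9 (SNAT9), a lysosomal protein that senses arginine for mTORC1, was lowest in Vehicle. Slc38a9, in replicates 1 to 4, stood at 8.87, 8.82, 9.21 and 8.59 in Vehicle and at 9.25, 8.88, 8.92 and 9.32 in TMP195. It stood at 9.41, 8.98, 9.69 and 9.15 in MYCi975 and at 8.79, 9.69, 9.21 and 9.14 in Combo. The difference was 0.44 (SE 0.19, 95% confidence interval 0.03 to 0.85, limma adjusted p = 0.999) for MYCi975 against Vehicle, with 4 of 4 libraries above the Vehicle mean, and 0.22 and 0.33 for TMP195 and Combo. Vehicle replicate 3 lay above MYCi975 replicates 2 and 4, so the groups overlapped. Without TMP195 replicate 1 and MYCi975 replicate 3, the highest in leukocyte markers, the MYCi975 difference was 0.31. The Combo difference was 0.17 without Combo replicate 2. The TMP195 difference was 0.125 without Vehicle replicate 4, 0.145 without TMP195 replicate 4 and 0.333 without Vehicle replicate 3.

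Slc38a2 (SNAT2), the transporter that cells induce when amino acids are scarce, had the narrowest range of the 29 tested transporters, with values of 13.71 to 13.92 in Vehicle, 13.69 to 13.91 in TMP195, 13.52 to 13.85 in MYCi975 and 13.58 to 13.87 in Combo. It differed from Vehicle by -0.00 (TMP195), -0.17 (MYCi975) and -0.08 (Combo), each with an SE of 0.10. Leaving out each library in turn gave -0.0408 to 0.0387 for TMP195 and -0.132 to -0.037 for Combo. Slc38a1 (SNAT1), a glutamine importer, ran from 12.42 to 12.91 in Vehicle, 12.19 to 12.76 in TMP195, 12.19 to 12.85 in MYCi975 and 12.54 to 13.01 in Combo, and its replicate 4 was the lowest library of Vehicle, TMP195 and MYCi975. It differed by -0.14 (TMP195), -0.11 (MYCi975) and -0.03 (Combo), each with an SE of 0.16, and with quantile normalisation the sign changed for any MYCi975 against none, to 0.04, and for Combo, to 0.01, as it did for Slc38a2 in TMP195, to 0.04. For Slc38a1, leaving out each library in turn gave -0.237 to -0.0113 for TMP195, -0.212 to 0.0204 for MYCi975 and -0.133 to 0.0395 for Combo, the highest of these without TMP195 replicate 4, MYCi975 replicate 4 and Vehicle replicate 1 in that order. Slc38a4, an imprinted gene, differed from Vehicle by -0.04 (TMP195), -0.29 (MYCi975) and -0.10 (Combo), each with an SE of 0.15. Slc38a7, a lysosomal glutamine exporter, and Slc38a10 lay -0.16 to -0.01 from the Vehicle mean in the 3 treatments.

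In the SLC43 family, Slc43a1 (LAT3), a carrier of branched-chain amino acids and phenylalanine, was weakly expressed and lowest in Vehicle. Slc43a1, in replicates 1 to 4, stood at 5.84, 5.60, 5.84 and 5.70 in Vehicle and at 5.52, 6.30, 5.73 and 6.57 in TMP195. It stood at 5.78, 6.12, 6.02 and 6.30 in MYCi975 and at 6.31, 5.75, 6.45 and 6.75 in Combo. It reached the filter level in no Vehicle library, 2 TMP195, 3 MYCi975 and 3 Combo libraries, so it passed the filter only through the treated groups and its difference is in part set by that choice. The difference of Combo from Vehicle was 0.57 (SE 0.22, 95% confidence interval 0.10 to 1.04, limma adjusted p = 0.987), with Combo replicate 2 inside the Vehicle range, and it was 0.41 without the 4 libraries numbered 4. Slc43a2 (LAT4), which carries the same amino acids, and Slc43a3, known as a transporter of purine bases, differed from Vehicle by between -0.23 and 0.12.

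Of the SLC36 family, Slc36a1, a proton-coupled exporter of the lysosome, and Slc36a4 were tested. Slc36a4 ran from 9.56 to 10.28 in Vehicle, 9.66 to 10.16 in TMP195, 9.35 to 9.98 in MYCi975 and 9.79 to 10.33 in Combo, and Combo differed from MYCi975 by 0.34 (SE 0.17, 95% confidence interval -0.02 to 0.71, limma adjusted p = 1), which was 0.23 without Combo replicate 3. For Slc36a1 all differences from Vehicle lay between -0.00022 and 0.07.

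In the SLC6 family the taurine transporter Slc6a6, the creatine transporter Slc6a8 and the glycine transporter Slc6a9 lay below the Vehicle mean in every treatment, without passing the test. The treatments were set against the same Vehicle libraries, so their differences are not independent. Slc6a8 differed by -0.24 (TMP195), -0.37 (MYCi975) and -0.18 (Combo), each with an SE of 0.18, and had the smallest p of the transporters for the interaction, 0.43 (SE 0.25, 95% confidence interval -0.11 to 0.97, limma adjusted p = 1). Slc6a8, in replicates 1 to 4, stood at 10.65, 10.79, 11.27 and 10.76 in Vehicle and at 10.52, 10.79, 10.92 and 10.26 in TMP195. It stood at 10.58, 10.73, 9.99 and 10.69 in MYCi975 and at 10.80, 10.48, 10.61 and 10.85 in Combo. Its lowest value was that of MYCi975 replicate 3 and its highest that of Vehicle replicate 3. The interaction was 0.26 without MYCi975 replicate 3 and 0.14 with the leukocyte mean as a covariate. Slc6a9 differed from Vehicle by -0.12 (TMP195), -0.07 (MYCi975) and -0.40 (Combo), each with an SE of 0.25, and Slc6a6 by -0.09 (TMP195), -0.15 (MYCi975) and -0.11 (Combo), each with an SE of 0.13. The neutral amino acid transporter Slc6a15 differed by 0.04 (TMP195), -0.17 (MYCi975) and -0.14 (Combo), each with an SE of 0.19, and Slc6a20b, of the proline carriers, reached the filter level in 6 libraries, none of them Vehicle.

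The 9 transporter genes below the filter were Slc7a2 (3 libraries at the level), Slc7a8 (2), Slc1a3, Slc6a4 and Slc6a17 (1 each), and Slc1a7, Slc6a2, Slc6a5 and Slc7a13 (none). Slc6a2, the noradrenaline transporter, stood at the lowest value of the table in 11 of 16 libraries. The serotonin transporter Slc6a4, the neuronal glycine transporter Slc6a5 and Slc6a17 of synaptic vesicles belong to nerve cells, and no group test was made of these genes.

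Heavy and light chains work as pairs, so Slc3a2 was set against the light chains Slc7a5, Slc7a6, Slc7a7 and Slc7a8. It was also set against Slc1a5 of the SLC1 family, and the leukocyte marker mean was set against Slc7a7, Slc7a8 and Slc7a2. These 8 relations were computed across the 16 libraries, with p-values by permutation (100000 resamples, two-sided) and adjusted over the 8. Slc3a2 and Slc7a5 had r = 0.605 (permutation p = 0.0127, adjusted 0.051) and rho = 0.509 (permutation p = 0.0465, adjusted 0.17). Without Vehicle replicate 4 and TMP195 replicate 3, the libraries farthest from the median of Slc3a2, r was 0.452, and about the group means it was 0.468. The relation missed the adjusted threshold. With Slc7a6, Slc7a7, Slc7a8 and Slc1a5, Slc3a2 had r = 0.355, -0.429, 0.333 and 0.403 and rho = 0.279, -0.424, 0.447 and 0.421, none with an adjusted permutation p under 0.05. Without the same 2 libraries these r were 0.395, -0.53, 0.448 and 0.61. About the group means they were 0.379, 0.121, -0.245 and 0.404, so the sign turned for Slc7a7 and Slc7a8.

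Slc7a8 (LAT2), the light chain for neutral amino acids that lay just below the filter, varied with the leukocyte markers. It stood at 6.46, 5.82, 5.26 and 6.22 in replicates 1 to 4 of TMP195 and at 5.10, 5.55, 5.55 and 5.71 in Vehicle. It stood at 5.27, 4.84, 5.31 and 5.23 in MYCi975 and at 5.17, 5.55, 5.36 and 5.53 in Combo. The highest of the 16 values was in TMP195 replicate 1, the library with the highest leukocyte mean. MYCi975 replicate 3, next highest in leukocyte mean at 7.03, went the other way. Its Slc7a8 value of 5.31 lay below the median of 5.44 over the 16 libraries. The correlation with the mean of the 9 leukocyte markers was r = 0.701 (permutation p = 0.00372, adjusted 0.0298) and rho = 0.709 (permutation p = 0.00278, adjusted 0.0222). It was r = 0.783 without TMP195 replicate 1 and MYCi975 replicate 3, 0.733 without the libraries numbered 4, which are too few for a value of their own, and 0.738 about the group means. Slc7a7 had r = -0.432 (permutation p = 0.0935, adjusted 0.172) and rho = -0.344. Its r was -0.19 without those 2 libraries, -0.556 without the libraries numbered 4 and -0.235 about the group means. Slc7a2 had r = 0.392 (permutation p = 0.129, adjusted 0.172) and rho = 0.171. In the same order its r was 0.212, 0.459 and 0.282. Both Slc7a8 and Slc7a2 are so low that their values compress.

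**Figure D3:**
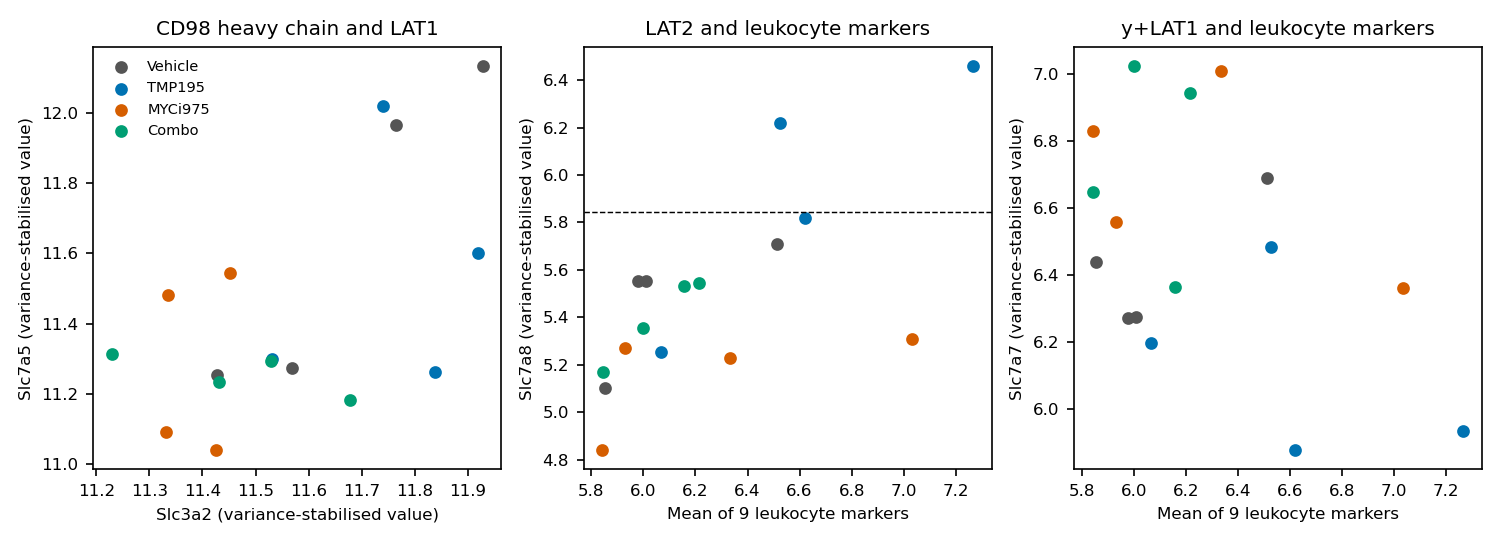
Variance-stabilised values of 16 libraries (points, coloured by group): Slc7a5 (y) against Slc3a2 (x), and Slc7a8 and Slc7a7 (y) against the mean of 9 leukocyte markers (x); the dashed line marks the filter level of 5.84. Slc7a8, which lay below the filter, tends to be higher where leukocyte markers are higher (r = 0.701), but not in MYCi975 replicate 3. Slc7a7 has r = -0.432 with these markers, and Slc3a2 and Slc7a5 have r = 0.605.

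Transporters named as ATF4 targets numbered 8 (Slc1a4, Slc1a5, Slc3a2, Slc6a9, Slc7a1, Slc7a3, Slc7a5 and Slc38a2), and all were tested. Of these, 7 lay below for any MYCi975 against none (background 50.5% of all genes). Their median was -0.14, beside a median of -0.05 over the 29 transporters. For MYCi975 against Vehicle 7 of 8 were lower (median -0.17), for Combo against Vehicle 6 of 8 (median -0.17) and for TMP195 against Vehicle 5 of 8 (median -0.06). Slc7a3 was the one higher in MYCi975. Of 7 transporters named as MYC targets, 6 were tested (Slc1a5, Slc3a2, Slc7a1, Slc7a5, Slc7a6 and Slc43a1), and 5 of 6 were lower in MYCi975 (median -0.20) and in Combo (median -0.21), with Slc43a1 higher in each. Slc43a1 passed the filter through no Vehicle library, so its part in the counts and medians of this list was partly set by the filter. In TMP195 4 of the 6 were lower (median -0.11). Beside both lists, 52.9% of all genes were lower in MYCi975, 52.6% in Combo and 53.7% in TMP195, and whether the treatments differ in these counts was not tested. The lists share 4 genes, and none of their members passed the test.

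Genes around the transporters were read in the same fit, and 0 of them passed the adjusted test in any comparison. Of 15 genes of the amino acid response, 13 lay below Vehicle in MYCi975 (median -0.11), 13 in Combo (median -0.17) and 10 in TMP195 (median -0.04), where the shares of all genes below Vehicle were 52.9%, 52.6% and 53.7%. In Combo 1 of the 15 had an unadjusted p under 0.05, near the background of 4.09%: Trib3, a pseudokinase induced by ATF4 (-0.50, SE 0.20). Atf4 itself differed from Vehicle in the same direction in all treatments, by -0.25 (TMP195), -0.30 (MYCi975) and -0.19 (Combo), each with an SE of 0.16, and by -0.12 (SE 0.11) for any MYCi975 against none. All treatments were set against the same Vehicle libraries, so agreement between them, for Atf4 and for the lists, is not independent. Of 31 tested genes of amino acid sensing by mTORC1, 16 were lower in MYCi975 and 15 in Combo, with medians of -0.01 and 0.01. Fnip2, a partner of the folliculin complex, had the smallest p of that list for any MYCi975 against none, -0.37 (SE 0.10). Rragd, a GTPase that recruits mTORC1 to the lysosome, differed by 0.30 (SE 0.12). In that comparison 1 of the 31 was higher and 1 lower at an unadjusted p under 0.05 (limma), beside a background of 5.32%. Of 18 tested genes of glutamine, arginine and branched-chain use, 14 lay below Vehicle in each treatment (medians -0.08 in TMP195 and -0.09 in MYCi975 and Combo). Arg1, arginase of myeloid cells and liver, was higher in TMP195 by 0.99 (SE 0.32), beside a median of 0.63 for the 5 tested macrophage markers, of which 4 were higher. Bcat1, which starts the breakdown of branched-chain amino acids, differed in TMP195 by -0.40 (SE 0.16). Of these 18 genes, 1 was higher and 1 lower in TMP195 at an unadjusted p under 0.05 (limma), beside a background of 4.88%.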

How the data were processed

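RNA was sequenced from enriched LLC1 tumour cells in 16 libraries. The authors deposited variance-stabilised values, close to log2, with a lowest value of 4.842 in every library. Salmon and the build hg38 are named in the submitters' processing notes, although the samples are mouse. The stabilising tool and annotation were not given in the sources used here. Depth is unknown, so no counting interval was possible. Symbols were matched for 23150 of 24334 gene identifiers. Genes at least 1 above the lowest value in 4 or more libraries (15715) were fitted with limma 3.58.1 (R 4.3.3; 4 group means, intensity trend) with Benjamini-Hochberg adjustment per comparison; the code was tested on simulated data. The median SE over all genes was 0.157. Correlations used permutation (scipy 1.17.1). Promoter windows came from RefSeq. Genes named are Slc7a5, Slc3a2, Slc1a5, Slc7a1, Slc38a1, Slc38a2, Slc38a9 and the 2 transporters with the smallest p in each comparison; other transporters are described by role and in part were picked after their values were seen. Of the other lists, up to 3 genes with the smallest p are named. Members and lists were chosen with earlier results of these data known. Alternatives were other filters, normalisations, moderation, weights, a leukocyte covariate, a replicate block and each replicate left out; leaving out the 4 libraries numbered 4, or the 2 highest in leukocyte markers, was chosen after seeing the data.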

Additional observations from a re-analysis of the deposited data

Results flagged for a closer look

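2 of 56 groups of 4 values, of the transporters tested in this way, held a library far from the other three by Dixon's ratio, and chance alone flags about 1 group in 20. Vehicle replicate 2 stood apart for Slc1a4, at 10.014. Combo replicate 1 stood apart for Slc38a1, at 13.007.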

How the results depend on the processing

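No transporter passed the adjusted test in any of 249 refits, and the smallest adjusted p was 0.0548 (limma, Slc7a7, Combo against TMP195, array quality weights). Of 1185 refits of named differences, 29 changed sign, and the cause was not tested. The difference of Slc38a2 between TMP195 and Vehicle became 0.0364 with quantile normalisation, 0.0389 with median centring, 0.00996 with array quality weights and 0.0415 without the 4 libraries numbered 4. That of Slc38a1 between Combo and Vehicle became 0.0124 with quantile normalisation and 0.00241 with median centring, and for any MYCi975 against none it became 0.0377 with quantile normalisation and 0.0247 without the 2 leukocyte-richest libraries, TMP195 replicate 1 and MYCi975 replicate 3. With each replicate omitted in turn, values were -0.133 to 0.0395 for Slc38a1 in Combo against Vehicle, -0.212 to 0.0204 in MYCi975 against Vehicle and -0.0644 to 0.067 for any MYCi975 against none. For TMP195 against Vehicle it gave -0.0408 to 0.0387 for Slc38a2, -0.277 to 0.0032 for Slc7a1 and -0.269 to 0.0482 for Slc7a5. The count of all genes called by limma for MYCi975 against TMP195 was 1, became 0 with the stricter filter, the replicate block, the leukocyte covariate, the compared groups alone and without the libraries numbered 4, 2 with array quality weights, and 0 to 3 leaving out a replicate. For Combo against TMP195 it was 0, and became 1 without the intensity trend or without the 2 libraries highest in leukocyte markers, 65 with array quality weights, and 0 to 2 leaving out a replicate. For any difference among the 4 groups it was 0, and became 1 without the intensity trend, with robust moderation, median centring or array quality weights, or without those 2 libraries, and 0 to 2 leaving out a replicate. It became 1 for Combo against Vehicle with the compared groups alone and for any MYCi975 against none without those 2 libraries. Leaving out a replicate gave 0 to 2 for TMP195 against Vehicle (2 without TMP195 replicate 3), and 0 to 1 for MYCi975 against Vehicle and for Combo against MYCi975 (1 without MYCi975 replicate 2). Replicate numbers are shared by the groups, but they were not taken to pair the libraries: the 24 same-number correlations of deviations ran from -0.24 to 0.428, and 15 were over 0.1, so not every pair was. Same-number pairs were more alike than others, with a median of 0.187 against -0.0398 over 72 other-number pairs, of which 10 were over 0.1. The best match of a library in another group had its own number in 30 of 48 cases, and in all 3 other groups for 8 of 16 libraries, a hint from the data and not from the design. With the replicate block, 0 transporters and 0 genes were called in every comparison. The unknown depth and the compressed low values limit what can be read from weakly expressed transporters.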
